A study of Mus musculus with 12 samples.

Results

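The matrix-binding integrins are 10 genes, taken by name: the alpha subunits Itga1, Itga4, Itga5, Itga8, Itga11 and Itgav and the beta subunits Itgb1, Itgb3, Itgb5 and Itgb8. All 10 were found among the 37991 gene identifiers of the count table, and all 10 were among the 16473 genes with enough counts to test. They were measured by bulk RNA sequencing of spinal cord from 12 adult C57bl/6J mice, each over 8 weeks old and each carrying Glast-CreERT2, R26R-YFP and Rasless. The SCI Tam group is 4 mice that were given 2 mg of tamoxifen in each of 5 daily injections, left for 7 days, and then cut by dorsal hemisection of the high thoracic cord. The SCI Veh group is 4 mice with the same alleles and injury that had the solvent in place of tamoxifen. Lesions of both groups were dissected 14 days after injury. The Uninjured group is 4 mice with the same alleles, labelled vehicle for injection and 14 days for time, from which a cord segment was taken.

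The Cre of this line is driven by the Glast promoter, is activated by tamoxifen, and is used to reach type A pericytes. Recombination of its alleles was not analysed here. Since the submitters call the scar of vehicle lesions dense and that of tamoxifen lesions attenuated, matrix genes differing between them is partly given by that description. Every library is whole tissue, so fewer cells of a type and less of a transcript per cell cannot be told apart.

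Integrins are cell surface receptors made of 1 alpha and 1 beta subunit that join the extracellular matrix outside the cell to talin and the actin cytoskeleton inside it. The pair decides the ligand: Itgb1 joins with many alpha subunits to bind fibronectin, collagen and laminin, whereas Itgav joins with several beta subunits to bind vitronectin and the latent form of TGF-beta. In the injured cord they are studied as the receptors through which pericytes, fibroblasts, astrocytes and infiltrating leukocytes hold on to scar matrix.

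All 10 members were called higher in vehicle lesions than in uninjured cord, as were 26.7% of all genes tested. The largest rises were those of the fibronectin receptor subunit Itga5 (10.4-fold) and the collagen receptor subunit Itga11 (8.46-fold). In tamoxifen lesions 5 members were lower than in vehicle lesions (Itga5, Itga8, Itga11, Itgb3 and Itgb5), and none was higher. Of all genes, 8.33% were called lower and 7.79% higher between the lesions, so the absence of higher members is near the share over all genes. Of the 4 most abundant subunits, Itgb5 was thus lower, and Itgav, Itgb1 and Itgb8 did not pass the test between the lesions. Against uninjured cord, 6 members were higher in tamoxifen lesions, as were 26.3% of all genes, and Itga1, Itga8, Itga11 and Itgb3 did not pass. Between the lesions, Itga8 and Itgb5 each lost its call in 4 of 12 fits that left out 1 library. The series of sample names, described below, can hardly be told apart from tamoxifen. No member kept its call between the lesions with a term for that series.

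The libraries held 8302843 to 11804143 counts in the tamoxifen group, 7967970 to 12581324 in the vehicle group and 8868865 to 11686386 in the uninjured group. They are named by their mouse numbers, and values below follow the order 452, 513, 549 and 564 for tamoxifen, 402, 428, 429 and 457 for vehicle and 376, 377, 385 and 467 for uninjured. Tamoxifen libraries 513, 549 and 564 have sample names from 106 to 108, and the other 9 libraries, 452 included, have sample names from 1 to 20. From Xist and Y-linked genes, 0 of 4 tamoxifen, 3 of 4 vehicle and 1 of 4 uninjured libraries came from males. Skeletal muscle markers stood above a mean of 2 log2 CPM (CPM being counts scaled to the library total) in 0 tamoxifen libraries, 3 vehicle ones (402, 429 and 457) and 2 uninjured ones (377 and 385). Markers of neurons, astrocytes and oligodendrocytes were detected in every group, which is the labelled tissue.

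The 250 bases before the start of the 3 members that rose most after injury are shown, because they are also 3 of the 5 that were lower after tamoxifen. They are from RefSeq on GRCm38.p6, a later build than the mm9 of the counts, and read 5′ to 3′ on the gene's strand. Capitals mark a GC box, the letters GGGCGG on either strand, a motif that Sp1 family factors can bind.

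Itga11, chr9:62677605-62677854, plus strand: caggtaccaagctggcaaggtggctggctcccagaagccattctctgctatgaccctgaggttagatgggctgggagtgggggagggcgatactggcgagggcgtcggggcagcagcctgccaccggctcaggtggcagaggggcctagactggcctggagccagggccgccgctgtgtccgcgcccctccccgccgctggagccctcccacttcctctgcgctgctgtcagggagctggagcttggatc
Itga5, chr15:103366792-103367041, minus strand: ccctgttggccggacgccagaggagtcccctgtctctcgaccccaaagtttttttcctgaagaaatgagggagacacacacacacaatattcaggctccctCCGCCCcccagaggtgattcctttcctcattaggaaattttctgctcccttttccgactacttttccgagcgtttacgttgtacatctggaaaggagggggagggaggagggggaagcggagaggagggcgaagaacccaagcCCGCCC
Itgb5, chr16:33829415-33829664, plus strand: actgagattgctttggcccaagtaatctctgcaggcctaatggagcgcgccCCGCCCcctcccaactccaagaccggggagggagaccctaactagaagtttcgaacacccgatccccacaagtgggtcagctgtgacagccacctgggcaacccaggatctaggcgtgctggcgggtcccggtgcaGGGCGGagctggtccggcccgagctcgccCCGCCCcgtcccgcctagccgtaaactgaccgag

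These windows held 0 GC boxes for Itga11, 2 for Itga5 and 3 for Itgb5, at 68.4%, 55.6% and 65.2% GC against a median of 52.4% over 32851 promoters of the table. Of the 9 members with an entry, 4 held a GC box (Itga4, Itga5, Itgb1 and Itgb5), as did 32.7% of all promoters. The AP-1 site TGANTCA was found in 0 of 9 members and 6.75% of all promoters, the SMAD letters CAGAC in 4 of 9 and 42.2%, and the TEAD site GGAATG in 1 of 9 (Itgb1) and 12.6%. Each motif was searched on both strands, none overlaps another in its letters, and a match says only that the letters are there.

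Levels of different genes were compared per transcript length, as the authors' FPKM. Itgb1 and Itgb5 were the most abundant members in tamoxifen lesions at 59.5 ± 10.4 and 55.2 ± 7.25 FPKM (SD, n = 4), and their libraries overlapped. In vehicle lesions the same pair led at 67.9 ± 8.35 FPKM for Itgb1 and 79.4 ± 14.4 FPKM for Itgb5, again with overlap. In uninjured cord Itgb1 led alone at 30.4 ± 1.74 FPKM, above Itgav (25.2 ± 2.24 FPKM) and Itgb5 (25.2 ± 3.89 FPKM), which overlapped.

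The order then split into a high and a low tier. Itgb1, Itgb5, Itgav and Itgb8 held the high tier in each group, and the lowest of them, Itgb8, was at 26.3 ± 3.06 FPKM in tamoxifen lesions, 23.9 ± 2.95 FPKM in vehicle lesions and 18.9 ± 1.18 FPKM in uninjured cord. Next came Itga5 in both lesions, at 4.46 ± 1.08 FPKM in tamoxifen and 7.86 ± 1.07 FPKM in vehicle lesions, with no library of it overlapping the members above and below. In uninjured cord that place was held by Itga1 at 1.92 ± 0.128 FPKM, which overlapped Itgb3, and Itga5 was eighth at 0.695 ± 0.228 FPKM. Itga8 and Itga11 were last in tamoxifen lesions, at 0.458 ± 0.192 and 0.226 ± 0.141 FPKM, and overlapped.

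**Figure D1:**
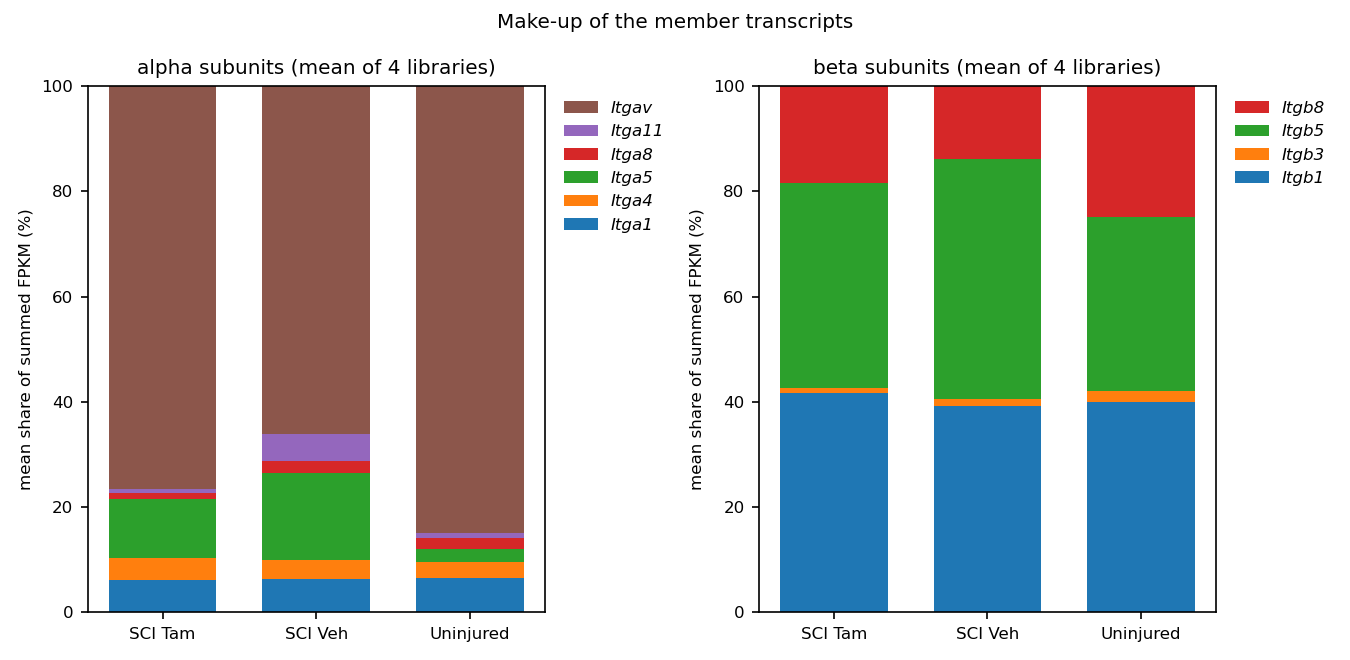
Mean share of the summed FPKM of the 6 alpha subunits (left) and 4 beta subunits (right), in percent, for tamoxifen lesions, vehicle lesions and uninjured cord. Itgav holds 76.6% of the alpha sum in tamoxifen lesions, 66.1% in vehicle lesions and 84.9% in uninjured cord, while Itga5 holds 11.3% in tamoxifen lesions, 16.6% in vehicle lesions and 2.31% in uninjured cord.

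As a make-up, Itgav transcripts were 76.6% ± 0.484 of the alpha sum in tamoxifen lesions, 66.1% ± 5.52 in vehicle lesions and 84.9% ± 1.34 in uninjured cord (SD, n = 4). The 3 groups did not overlap, with library ranges of 76.0 to 77.1%, 58.1 to 70.7% and 83.5 to 86.1%. Itga5 took 11.3% ± 1.16 in tamoxifen lesions, 16.6% ± 0.953 in vehicle lesions and 2.31% ± 0.647 in uninjured cord, and Itga11 took 0.631% ± 0.455 in tamoxifen lesions, 5.05% ± 4.21 in vehicle lesions and 0.918% ± 0.384 in uninjured cord. Among the beta subunits, the Itgb1 share was nearly level at 41.7% ± 3.91 in tamoxifen lesions, 39.2% ± 2.15 in vehicle lesions and 40.0% ± 2.24 in uninjured cord. Itgb5 took 38.8% ± 3.16 of the beta sum in tamoxifen lesions, 45.5% ± 2.35 in vehicle lesions and 33.0% ± 3.25 in uninjured cord. Itgb8 took 18.5% ± 0.764 in tamoxifen lesions, 13.9% ± 1.86 in vehicle lesions and 24.9% ± 2.02 in uninjured cord. These shares are descriptions of mean levels, with no test.

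**Figure D2:**
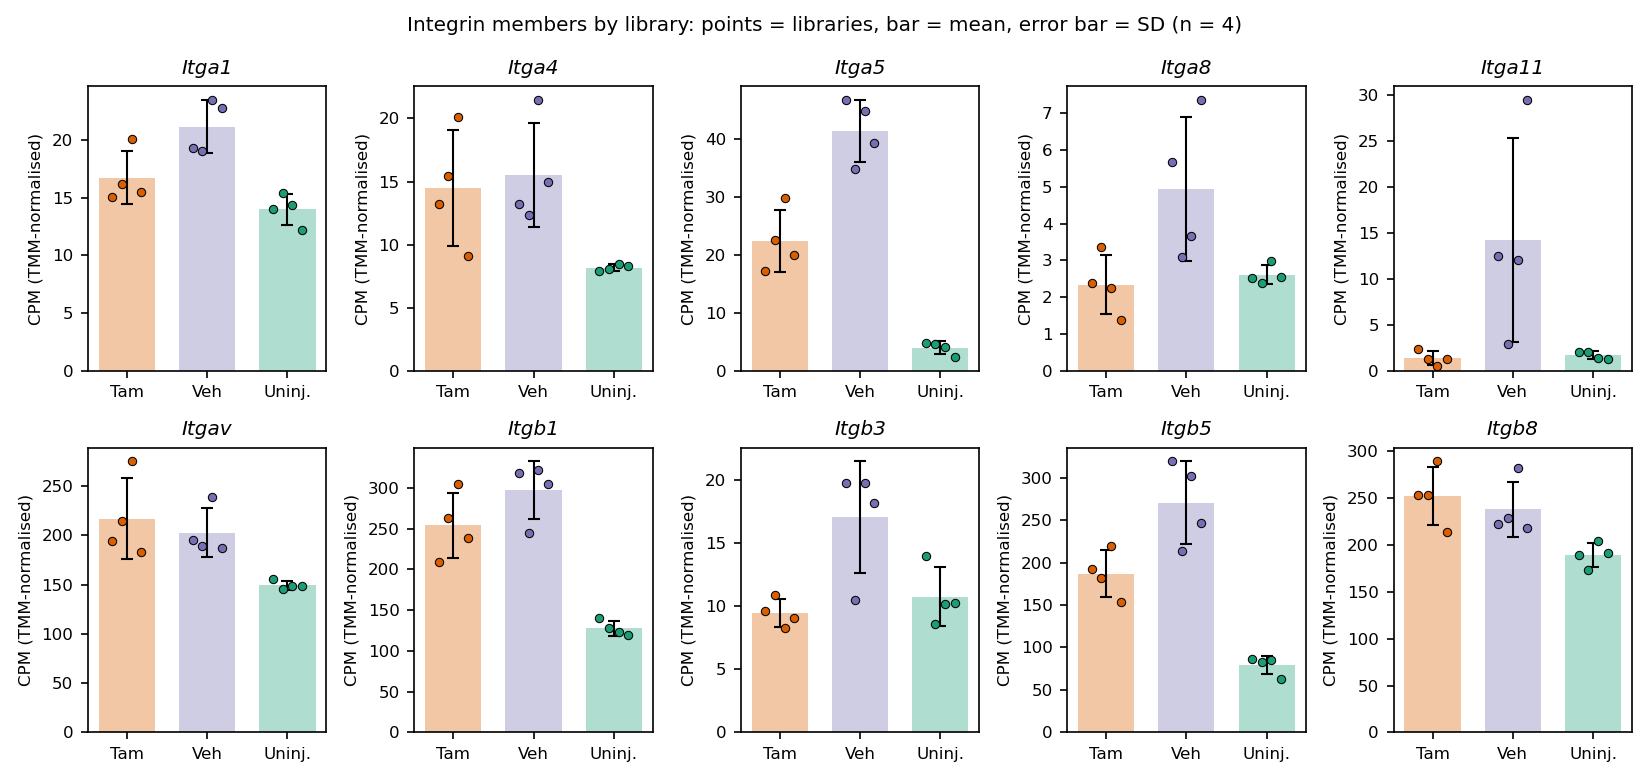
Each panel plots the 4 libraries of each group for 1 member as TMM-normalised CPM, with the group mean as a bar and the SD as an error bar, from a vertical axis that starts at 0. Itga5 and Itga11 are the only members whose tamoxifen libraries all lie below all vehicle libraries.

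The question of the tamoxifen and vehicle comparison is how the lesion changes when pericyte-derived scarring is attenuated. Levels between libraries are given as CPM after TMM scaling. In edgeR's quasi-likelihood test with Benjamini-Hochberg adjustment over all 16473 genes at a threshold of 0.05, 5 of 10 members were lower in tamoxifen lesions, where 8.33% of all genes were called lower. Of the 10, 0 were called higher, where 7.79% of all genes were. The median log2 difference was -0.44 over the members and 0.00 over all genes tested. Groups stood apart, every tamoxifen library below every vehicle library, for 2 members, and 8.77% of all genes did so.

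Itga11 makes, with Itgb1, a receptor for fibrillar collagen that is found mainly on fibroblasts. It was measured at 2.40, 1.30, 0.520 and 1.29 CPM in tamoxifen lesions, against 12.5, 2.96, 12.1 and 29.6 CPM in vehicle lesions. Uninjured cord had 2.07, 2.06, 1.41 and 1.32 CPM. All tamoxifen libraries were below all vehicle libraries, the vehicle libraries spread about 10-fold among themselves, and tamoxifen and uninjured libraries overlapped. The log2 difference between tamoxifen and vehicle was -3.43 (SE 0.585, edgeR adjusted p = 0.00425), which was the largest of the 10. Its depth was low: 6 to 20 counts in tamoxifen, 24 to 377 in vehicle and 15 to 24 in uninjured libraries.

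Within the vehicle group Itga11 was lowest in library 428, which was also the only vehicle library not high in muscle markers (mean 1.00 log2 CPM), and highest in 457, which had the highest muscle level (5.16 log2 CPM). Summed pericyte and fibroblast markers were likewise lowest in 428 (1086 CPM) and highest in 457 (1822 CPM). The part of muscle tissue or of cell numbers in the Itga11 difference was not tested. With the muscle-high libraries left out, which leaves 1 vehicle library, the log2 difference was -1.13 (edgeR adjusted p = 0.669, in a fit in which 0 of 17393 genes passed).

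Itga5 makes, with Itgb1, the main fibronectin receptor. It was measured at 17.3, 22.6, 29.8 and 20.0 CPM in tamoxifen lesions, against 46.7, 34.8, 44.8 and 39.3 CPM in vehicle lesions. Uninjured cord had 4.82, 4.71, 4.04 and 2.46 CPM, so the 3 groups did not overlap and tamoxifen lesions lay between the others. The log2 difference between tamoxifen and vehicle was -0.88 (SE 0.180, edgeR adjusted p = 0.00856). The call held in each of the 12 fits that left out 1 library, as it did for Itga11 and Itgb3.

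Itgb3, which joins Itgav to bind vitronectin and is also the platelet partner of Itga2b, had 9.59, 10.9, 8.24 and 9.09 CPM in tamoxifen lesions. Vehicle lesions had 19.8, 10.5, 19.7 and 18.2 CPM, with library 428 apart from the other 3 and within the tamoxifen range. Uninjured cord had 14.0, 8.57, 10.2 and 10.3 CPM. The log2 difference between tamoxifen and vehicle was -0.86 (SE 0.198, edgeR adjusted p = 0.0149).

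Itgb5, a widely expressed partner of Itgav that also binds vitronectin, had 192, 182, 219.7 and 153 CPM in tamoxifen lesions, against 319, 214, 302 and 247 CPM in vehicle lesions. Uninjured cord lay below both, at 86.8, 82.8, 85.0 and 63.1 CPM. Vehicle library 428 was the only one under a tamoxifen library. The log2 difference between tamoxifen and vehicle was -0.53 (SE 0.142, edgeR adjusted p = 0.0254). It lost its call without vehicle library 402 (edgeR adjusted p = 0.0647) or 429 (0.0627), and without tamoxifen library 513 (0.0691) or 564 (0.0779).

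Itga8, which joins Itgb1 and binds nephronectin, was among the least expressed members, at 2.40, 3.35, 2.25 and 1.38 CPM in tamoxifen lesions and 5.66, 3.09, 3.67 and 7.37 CPM in vehicle lesions. Uninjured cord had 2.52, 2.40, 2.99 and 2.55 CPM. Tamoxifen library 513 was above vehicle library 428, so the groups overlapped. The log2 difference between tamoxifen and vehicle was -1.09 (SE 0.296, edgeR adjusted p = 0.0277), on 15 to 36 counts in tamoxifen libraries and 25 to 94 in vehicle libraries. It lost its call without vehicle library 402 (edgeR adjusted p = 0.0621) or 457 (0.0872), and without tamoxifen library 549 (0.0550) or 564 (0.0808). On the authors' FPKM Itga8 missed the threshold in both limma fits (limma adjusted p = 0.0601 and 0.0632), and Itgb3 and Itgb5 missed it on log2(FPKM + 0.1) (0.0529 each). Itga8 also missed it when only the 8 lesion libraries were fitted (edgeR adjusted p = 0.0701).

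Itga1, the subunit of another Itgb1-linked collagen receptor, had 15.1, 16.2, 20.1 and 15.5 CPM in tamoxifen lesions, against 19.3, 19.0, 23.5 and 22.8 CPM in vehicle lesions. Tamoxifen library 549 was the only one that reached the vehicle range. The log2 difference was -0.34 (95% interval -0.59 to -0.09, edgeR adjusted p = 0.0620), which missed the threshold over all genes. Without tamoxifen library 549 it passed (log2 -0.44, edgeR adjusted p = 0.0247). It also passed with libraries scaled by their totals alone (log2 -0.37, edgeR adjusted p = 0.0456).

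The other members of the high tier, apart from Itgb5, did not pass between the lesions. Itgb1, the shared partner of the collagen and fibronectin receptors, had 209, 263, 305 and 239 CPM in tamoxifen lesions, against 318, 245, 321 and 305 CPM in vehicle lesions. The groups overlapped, and the log2 difference was -0.23 (95% interval -0.47 to 0.02, edgeR adjusted p = 0.178). Itgav, the alpha subunit of the vitronectin and latent TGF-beta receptors, had 194, 215, 276 and 183 CPM in tamoxifen lesions and 195, 189, 239.5 and 187 CPM in vehicle lesions. These ranges lay on each other, with a log2 difference of 0.10 (95% interval -0.15 to 0.35, edgeR adjusted p = 0.583).

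Itgb8, which with Itgav releases active TGF-beta from its latent form and in the cord is known from astrocytes, had 253, 253, 289 and 214 CPM in tamoxifen lesions and 223, 229, 282 and 218 CPM in vehicle lesions. Its log2 difference was 0.09 (95% interval -0.13 to 0.30, edgeR adjusted p = 0.579). Itga4, which binds Vcam1 and fibronectin and is carried by many leukocytes, had 13.2, 15.5, 20.1 and 9.09 CPM in tamoxifen lesions, against 13.3, 12.3, 21.5 and 15.0 CPM in vehicle lesions. It spread most over its replicates among these and had the widest interval of the uncalled members, with a log2 difference of -0.10 (95% interval -0.57 to 0.37, edgeR adjusted p = 0.773).

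**Figure D3:**
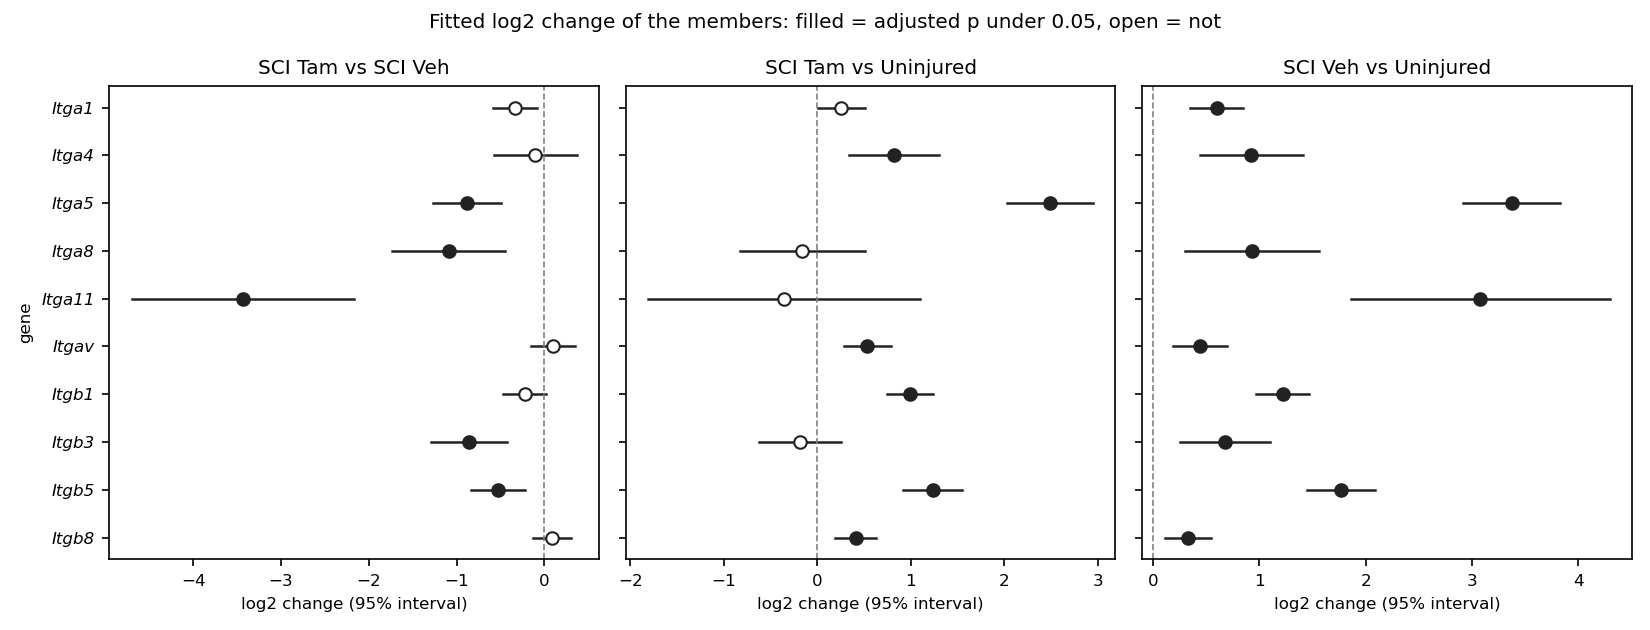
Fitted log2 change of each member (points) with its 95% interval (lines) in tamoxifen against vehicle lesions, tamoxifen lesions against uninjured cord and vehicle lesions against uninjured cord. Filled points passed an adjusted p of 0.05: 5 of 10 lie below 0 in the left panel, 6 of 10 above 0 in the middle panel and 10 of 10 above 0 in the right panel, and the panels have different horizontal scales.

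Set against uninjured cord, vehicle lesions had a rise of every member: 10 of 10 were called higher, where 26.7% of all genes tested were. The median log2 change was 0.93 over the members and 0.02 over all genes. For 9 members every vehicle library was above every uninjured library, as for 26.3% of all genes, and Itgb3 was the exception. Itga5 rose 10.4-fold (log2 3.37, SE 0.211, edgeR adjusted p = 1.14e-06), Itga11 8.46-fold (log2 3.08, SE 0.563, edgeR adjusted p = 0.000603) and Itgb5 3.41-fold (log2 1.77, SE 0.147, edgeR adjusted p = 3.77e-06). Itgb1 rose 2.33-fold, to 297 ± 35.7 CPM in vehicle lesions against 128 ± 9.01 CPM in uninjured cord.

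The other rises were smaller. Itga8 rose 1.91-fold, Itga4 1.90-fold, Itgb3 1.60-fold, Itga1 1.51-fold, Itgav 1.36-fold and Itgb8 1.25-fold. Itga8 lost its call without vehicle library 402 (edgeR adjusted p = 0.0523) or 457 (0.0835), and Itgb8 without uninjured library 377 (0.0541) or vehicle library 429 (0.0769). On the authors' FPKM (limma on log2(FPKM + 1) and log2(FPKM + 0.1)), Itgav (limma adjusted p = 0.0975 and 0.0981) and Itga8 (0.113 and 0.156) did not pass, and with a sex term Itga8 did not (edgeR adjusted p = 0.0899). Without the 5 libraries high in muscle markers, which leaves 1 vehicle library, 2 of 10 members were called (Itga5 and Itgb5), in a fit in which 1.70% of all genes passed.

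In tamoxifen lesions against the same uninjured libraries, 6 of 10 members were called higher, where 26.3% of all genes were, and the 6 also stood apart, as 21.4% of all genes did. Itga5 rose 5.63-fold, Itgb5 2.36-fold, Itgb1 1.99-fold, Itga4 1.77-fold, Itgav 1.45-fold and Itgb8 1.33-fold. On the authors' FPKM Itgav did not pass (log2 0.23 and 0.24 in the 2 limma fits, limma adjusted p = 0.187 in both). The 4 members that did not pass were Itga1 (log2 0.26, 95% interval 0.00 to 0.51, edgeR adjusted p = 0.0849), Itga8 (log2 -0.16, -0.83 to 0.51, 0.696), Itga11 (log2 -0.35, -1.81 to 1.10, 0.690) and Itgb3 (log2 -0.18, -0.62 to 0.26, 0.482). For Itga11 that interval spans a change of over 2-fold either way, so similar levels were not shown. The median log2 change was 0.47 over the members and 0.01 over all genes.

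Tamoxifen and the series of sample names can hardly be told apart, since 3 of 4 tamoxifen libraries and no other library have names from 106 to 108. With the series as a term in the fit, which rests the comparison on tamoxifen library 452, 0 of 10 members were called lower between the lesions, and 0.243% of all genes were. The differences kept their sign for the 5 called members: log2 -2.59 for Itga11 (edgeR adjusted p = 0.277), -1.26 for Itga5 (0.0963), -1.06 for Itga8 (0.398), -0.84 for Itgb3 (0.314) and -0.49 for Itgb5 (0.388). Library 452 held the lowest Itga5 and the highest Itga11 of the tamoxifen libraries. Against uninjured cord, 3 of 10 members were called with this term (Itga5, Itgb1 and Itgb5), where 7.55% of all genes were called higher.

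With sex as a term, 4 of 10 members were lower in tamoxifen lesions, where 3.56% of all genes were called lower, and Itga8 was lost (log2 -0.87, edgeR adjusted p = 0.192). No tamoxifen library came from a male, and 429 was the only vehicle library from a female. This fit therefore cannot fully part sex from tamoxifen. The ratio of CPM to the authors' FPKM differed between the series 106 to 108 and the other libraries by -0.17 log2 for Itga5 and 0.15 for Itgav, the largest among the members. Itga5 and Itgb8 were the members whose ratio did not overlap between the series. Overlap of this ratio was not counted over all genes, so it is not read as particular to these members. The part of the ratio in their levels was not tested.

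**Figure D4:**
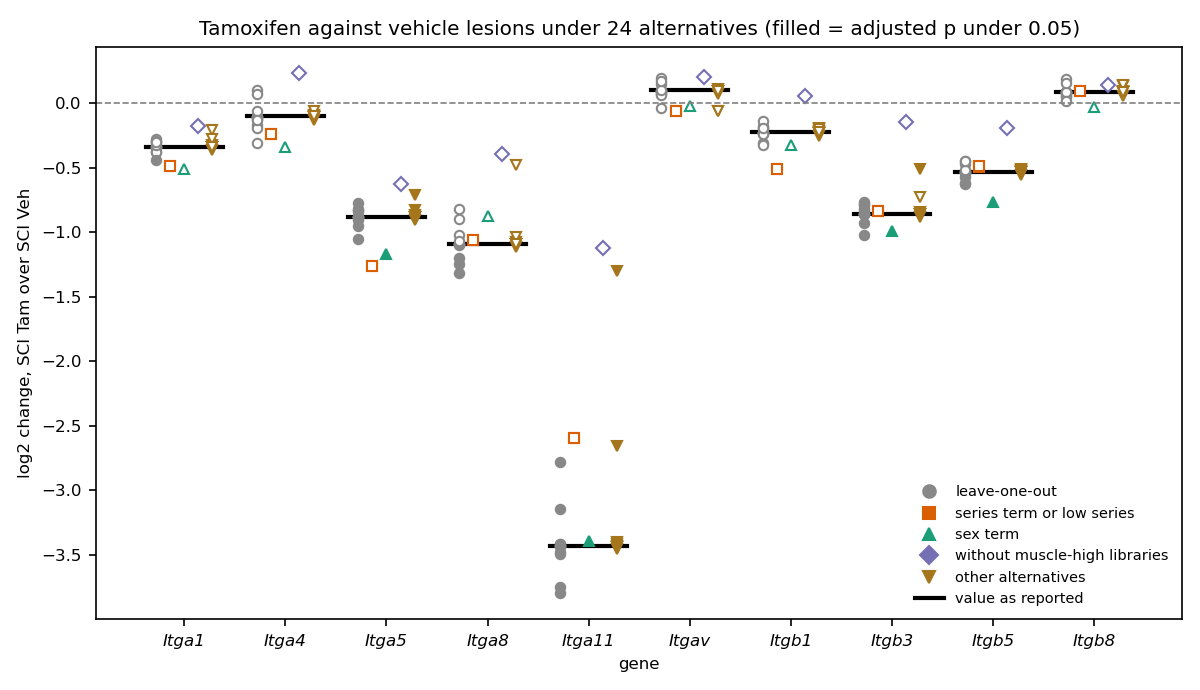
Log2 difference between tamoxifen and vehicle lesions for each member (vertical axis) as reported (black bars) and in 24 other fits (symbols, filled where the adjusted p is under 0.05). All symbols of Itga5, Itga8, Itga11, Itgb3 and Itgb5 lie below 0, and those of the fits with a series term, of the low series alone and without muscle-high libraries are open for every member.

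The remaining integrin subunits gave a comparison within the family. For this and the next lists, 8.33% of all genes were called lower and 7.79% higher in tamoxifen than in vehicle lesions. Against uninjured cord, 26.7% were called higher in vehicle and 26.3% in tamoxifen lesions. Called lower against uninjured cord were 3975 of 16473 genes in vehicle and 3735 of 16473 in tamoxifen lesions. The leukocyte list held 8 subunits, all tested, with the platelet subunit Itga2b among them. Of these, 0 were higher and 2 lower in tamoxifen than in vehicle lesions. Itgax, a subunit of myeloid cells, was at 30.1 ± 15.6 against 84.7 ± 26.5 CPM (log2 -1.51, edgeR adjusted p = 0.0108). Itga2b, the platelet partner of Itgb3, was at 3.93 ± 1.21 against 6.62 ± 0.462 CPM (log2 -0.74, edgeR adjusted p = 0.0309). Itgax was thus the only leukocyte subunit called. The count of 2 was 1 without vehicle library 402, 429 or 457 or tamoxifen library 513 or 549. In vehicle lesions against uninjured cord 7 of 8 were higher, among them Itgax (92.7-fold), Itgad (45.3-fold), Itgb2 (11.7-fold), Itgal (9.26-fold) and Itgam (5.203-fold), and in tamoxifen lesions against uninjured cord 6 of 8 were. Their median log2 changes were -0.51 between the lesions, 2.79 in vehicle lesions and 2.29 in tamoxifen lesions against uninjured cord.

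Of 8 other subunits, mostly laminin and collagen receptors, 7 were tested and Itgb6 was not. Itga10, another collagen receptor subunit, was the 1 called between the lesions, at 3.79 ± 1.36 CPM in tamoxifen and 9.25 ± 1.58 CPM in vehicle lesions (log2 -1.30, edgeR adjusted p = 0.00673). In vehicle lesions against uninjured cord 4 rose (Itga6 2.06-fold, Itga7 1.74-fold, Itga9 1.52-fold and Itga10 2.16-fold), and Itga3, a laminin receptor subunit, fell (log2 -0.27, edgeR adjusted p = 0.00304). The laminin receptor subunit Itga6 had nearly equal means of 126 ± 25.9 CPM in tamoxifen and 126 ± 17.8 CPM in vehicle lesions (edgeR adjusted p = 0.977).

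Adaptor proteins link integrin tails to actin. Of 26 adaptors 23 were tested (Fermt1, Ilk and Itgb1bp2 were not), and 8 were lower and 0 higher in tamoxifen than in vehicle lesions: Tns1, Vcl, Flna, Pxn, Kank2, Tln1, Zyx and Actn4. The filamin Flna was at 229 ± 32.5 against 357 ± 38.5 CPM (log2 -0.64, edgeR adjusted p = 0.00516), the tensin Tns1 at 171 ± 24.3 against 264 ± 21.5 CPM (log2 -0.63, 0.00357), paxillin (Pxn) at 57.6 ± 8.33 against 82.9 ± 7.62 CPM (log2 -0.52, 0.00609) and vinculin (Vcl) at 42.0 ± 2.81 against 59.0 ± 5.75 CPM (log2 -0.49, 0.00411). In vehicle lesions against uninjured cord 16 rose and 1, Tln2, fell, with Flna up 2.87-fold, Kank2 2.03-fold, Pxn 1.88-fold and Vcl 1.80-fold. In tamoxifen lesions against uninjured cord 14 rose and 2 (Tln2 and Tns1) fell.

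Of 28 ligands and ligand-presenting genes, all tested, 16 were lower and 0 higher in tamoxifen than in vehicle lesions, with a median log2 difference of -1.11. Those with the 4 smallest p were Col6a1 at 36.7 ± 12.5 against 314 ± 107 CPM (log2 -3.10, edgeR adjusted p = 0.000250), Col4a2 at 68.5 ± 12.6 against 172 ± 15.98 CPM (log2 -1.33, 0.000314), the fibroblast matrix gene Postn at 12.6 ± 2.78 against 251 ± 171 CPM (log2 -4.33, 0.000676) and Col4a1 at 79.7 ± 24.1 against 231 ± 30.6 CPM (log2 -1.53, 0.000760). Col1a1, a chain of the collagen that Itga11 binds, was at 129 ± 39.9 against 1386 ± 536 CPM (log2 -3.42, edgeR adjusted p = 0.00220).

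The Itga5 ligand fibronectin (Fn1) was at 517 ± 121 CPM in tamoxifen and 1326 ± 405 CPM in vehicle lesions (log2 -1.36, edgeR adjusted p = 0.0258), and the Itga8 ligand Npnt at 16.6 ± 3.21 CPM in tamoxifen and 25.0 ± 2.96 CPM in vehicle lesions (log2 -0.59, 0.0154). Vitronectin (Vtn) and osteopontin (Spp1), both ligands of Itgav pairs, did not pass: Vtn was at 104 ± 27.8 against 142 ± 35.1 CPM (log2 -0.46, edgeR adjusted p = 0.299), and Spp1 at 658 ± 309 against 744 ± 142 CPM (log2 -0.18, 0.685). Tgfb1, whose latent form Itgav pairs bind, missed the threshold narrowly (log2 -0.56, SE 0.180, 0.0514), and Tgfb3 was called at 48.4 ± 8.34 against 83.1 ± 24.3 CPM (log2 -0.78, 0.0137). In vehicle lesions against uninjured cord 25 of 28 ligands rose, among them Col6a1 (12.3-fold), Tgfb1 (5.24-fold), Col4a1 (4.68-fold) and Col4a2 (2.84-fold), and in tamoxifen lesions against uninjured cord 16 did.

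**Figure D5:**
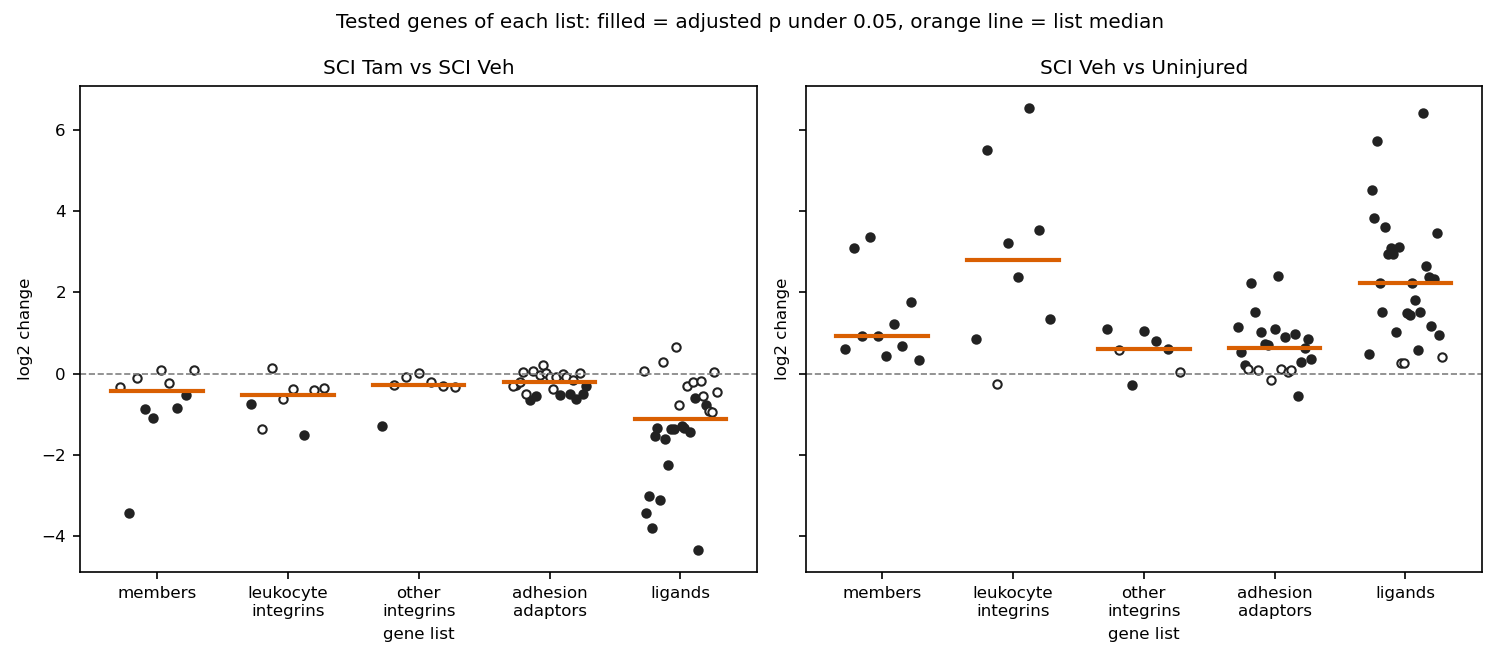
Log2 change of every tested gene of the 10 members, the leukocyte integrins, the other integrins, the adhesion adaptors and the ligands, for tamoxifen against vehicle lesions (left) and vehicle lesions against uninjured cord (right), with filled points for an adjusted p under 0.05 and a line at each list's median. The left medians run from -1.11 for ligands to -0.20 for adaptors, and the right medians are all above 0.

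Markers of cell types were set beside the members. Of all genes, 8.33% were called lower and 7.79% higher in tamoxifen than in vehicle lesions. A count of 1 in a list below is near these shares and a count of 2 is little above them. Neither is read as a change of a cell type. Of 14 pericyte and fibroblast markers 6 were lower in tamoxifen than in vehicle lesions. These were Lum (log2 -3.16), Dpt (-3.09), Dcn (-1.72), Anpep (-1.40), Pdgfrb (-1.04) and Mcam (-0.52). Pdgfra, Cspg4, Notch3 and Acta2 did not pass, nor did Rgs5 (0.01), Kcnj8 (0.01), Abcc9 (0.17) and Tagln (0.31), so the list did not move as a whole. The summed level of the 14 was 754 to 891 CPM in tamoxifen, 1086 to 1822 CPM in vehicle and 478 to 617 CPM in uninjured libraries. Of 10 macrophage and microglia markers 1 was lower, at summed levels of 837 to 1718 CPM in tamoxifen, 1129 to 2266 CPM in vehicle and 235 to 291 CPM in uninjured libraries. Of 10 endothelial markers 2 were lower, at 429 to 484 CPM in tamoxifen, 447 to 554 CPM in vehicle and 338 to 417 CPM in uninjured libraries, and of 10 astrocyte markers 2 were higher. Of 10 oligodendrocyte markers 1 was higher, of 9 neuron markers 0 passed in either direction, and of 6 Schwann cell markers 1 was lower. Of 11 tested skeletal muscle markers 3 (Myh1, Myh2 and Mb) were lower. The summed level was 65.0 to 118 CPM in tamoxifen, 79.6 to 639 CPM in vehicle and 83.0 to 909.5 CPM in uninjured libraries. Pvalb alone averaged 75.9, 70.5 and 107 CPM in these groups, which is most of the tamoxifen sum. The other tested markers averaged 0.399 (Ckm) to 3.05 (Mylpf) CPM in tamoxifen and 10.4 (Actn3) to 49.4 (Myh1) CPM in vehicle lesions. Tnnc2, which had too few counts to test, was at 0 in tamoxifen and uninjured libraries, and no marker of the other lists was at 0 in a whole group. The part of these cell types in the member differences was not tested.

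The genes whose levels followed each member most closely over the 12 libraries were found by the root-mean-square difference of log2 CPM, each gene centred on its own mean, among up to 13189 genes of at least 5 CPM. Itga11 was nearest to Abi3bp (0.494), Scara5 (0.587) and Aoc3 (0.598), of which Abi3bp averaged 5.82 CPM in tamoxifen, 37.8 CPM in vehicle and 7.25 CPM in uninjured libraries. Itga5 was nearest to Anxa3 (0.210), Cd109 (0.2501) and Vim (0.286), and Anxa3 averaged 81.7 CPM in tamoxifen, 143 CPM in vehicle and 15.8 CPM in uninjured libraries. Itgb5 was nearest to Mylip (0.0964), Tec (0.110) and Cd63-ps (0.120), and Itgb3 to Fzd1 (0.215), Egflam (0.217) and Sntb2 (0.230). Sntb2 was also the nearest to Itga8 (0.295), followed by Tjap1 (0.297) and P4ha2 (0.297).

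Among the other members, Itgav was nearest to Cbfb (0.0650), Itpkb (0.0714) and Sh3glb1 (0.0764), Itgb8 to Fmnl2 (0.0711), Zfp191 (0.0816) and Serinc5 (0.0819), and Itgb1 to Lhfp (0.0946), Hist1h1c (0.1001) and Gm16580 (0.104). Itga1 was nearest to Dag1 (0.0848), Smad3 (0.0870) and Ifnar1 (0.0871), and Itga4 to Slc7a2 (0.106), Nhlrc3 (0.155) and Car5b (0.161). These are descriptions over 12 libraries that share their groups and scaling. Cd63-ps is a pseudogene whose reads may be shared with its parent gene.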

How the data were processed

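Bulk RNA-seq of 12 mouse spinal cord libraries, 3 groups of 4, was used as deposited. Per the submitters' processing notes, the build was mm9 and TopHat, Picard, Cufflinks and HTSeq were used; what each did, the strand setting and the treatment of multiply mapped reads are not stated there. The authors deposited whole-number counts per Ensembl gene and FPKM values, 1 column per library. In the GENCODE annotation of a later build than mm9, exons of Itga1 overlap exons of Gm49395 on the same strand. Those of Itga4, Itga8 and Itgav overlap exons of Cerkl, E030013I19Rik and Gm13684 on the opposite strand. How reads there were counted is not known.

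Tests of the counts used edgeR 4.0.16 (R 4.3.3), with filterByExpr over the groups (minimum count 10, minimum total 15), TMM, 1 quasi-likelihood fit of 3 group means with 9 residual degrees of freedom, two-sided, Benjamini-Hochberg over 16473 genes. SE is the log2 change divided by the root of F, and intervals are 95%. The step was tested on simulated data. Of genes set to 0.5-fold, 72% were recovered in tamoxifen against vehicle, 64% in vehicle against uninjured and 76% in tamoxifen against uninjured. Of genes set to 2-fold, 80%, 86% and 84% were recovered in the same order. A member that did not pass may therefore still differ. Deposited FPKM served for levels between genes and in limma 3.58.1 on log2(FPKM + 1) or (FPKM + 0.1), an alternative. DESeq2 1.42.0, 2 other scalings, 2 other filters, series and sex terms and left-out libraries were the others. The 9 libraries of the low sample-name series alone were added after seeing the data.

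The members and lists were chosen with earlier results of these data known. Named genes are all members, in each list the called genes with the 4 smallest p in tamoxifen against vehicle and in vehicle against uninjured, those a biological clause needs, and the 3 genes nearest each member. Groups come from sample titles, whose mouse numbers name the libraries. Depth was 7967970 to 12581324 counts, and reads carry no molecular identifiers. The listed markers Tubb3, Acta1, Ncmap and Mlip were not analysed here.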

Additional observations from a re-analysis of the deposited data

Results flagged for a closer look

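In 3 of 30 groups of 4 libraries (10 members in 3 groups), 1 library stood far from the other 3, by a gap past Dixon's 95% critical value; chance gives this in about 1 of 20 groups. Itgav was at 239.503 CPM in vehicle library 429, above the other vehicle libraries at 187 to 195 CPM. Itgb3 was at 10.4932 CPM in vehicle library 428, below the other vehicle libraries at 18.2 to 19.8 CPM, and this is the vehicle library that was not high in muscle markers. Itgb5 was at 63.1179 CPM in uninjured library 467, below the others at 82.8 to 86.8 CPM. Library 467 is the male one of its group. It also had the lowest uninjured sums of pericyte and fibroblast (478 CPM), macrophage and microglia (235 CPM), endothelial (338 CPM) and Schwann cell markers (207 CPM). Its oligodendrocyte sum was the highest (21240 CPM). The part of sex or of tissue make-up was not tested.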

How the results depend on the processing

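No paired analysis was possible because the mouse numbers differ between the groups. Of the 10 members, 5 were called in tamoxifen against vehicle lesions; the count was 2 in limma on log2(FPKM + 0.1), 0 with the series term, 0 without the muscle-high libraries, 0 in the low series alone and 3 to 5 with 1 library left out, at 3 without vehicle library 402 or tamoxifen library 564. In tamoxifen lesions against uninjured cord, 6 members became 3 with the series term, 3 without the muscle-high libraries and 3 in the low series alone. In vehicle lesions against uninjured cord, 10 became 2 without the muscle-high libraries. Fits that leave 1 library in a group assume that it varies like the other groups. Calls over all genes fell too, also without the muscle-high libraries and in the low series alone. Between the lesions they were 16.1% of all genes as reported, 8.77% in limma on log2(FPKM + 0.1) and 0.346% with the series term. In tamoxifen lesions against uninjured cord they were 48.9% as reported and 11.8% with the series term. With libraries scaled by their totals alone, the member count between the lesions rose to 6 by the addition of Itga1, and 16.2% of all genes were called.

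The lists also moved. Between the lesions the series term gave 0 leukocyte integrins for 2, 0 other integrins for 1, 0 adaptors for 8 and 5 ligands for 16. In that fit 0.243% of all genes were called lower. The sex term gave 1 leukocyte and 0 other integrins, where 3.56% of all genes were called lower. Leaving out 1 library gave 1 to 3 leukocyte and 1 to 2 other integrins. Against uninjured cord, tamoxifen lesions had 6 adaptors for 16, 5 ligands for 16 and 2 other integrins for 3 with the series term, and 14 to 17 adaptors, 15 to 18 ligands and 3 to 4 other integrins with 1 library left out. Vehicle lesions had 15 to 19 adaptors for 17.

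Signs turned only for uncalled differences and for Itgb3. Between the lesions, Itgav went to -0.0582 in limma on log2(FPKM + 1), -0.0602 on log2(FPKM + 0.1), -0.0638 with the series term, -0.0630 in the low series and -0.0255 with the sex term, and ran from -0.0373 to 0.20 with 1 library left out. Itgb8 went to -0.0286 with the sex term, Itga4 to 0.23 and Itgb1 to 0.0564 without the muscle-high libraries, and Itga4 ran from -0.31 to 0.10 with 1 library left out. Against uninjured cord, Itga11 in tamoxifen lesions was 0.49 with the series term and 0.49 in the low series, Itga8 ran from -0.39 to 0.0320 with 1 library left out, and Itgb3 in vehicle lesions was -0.23 without the muscle-high libraries. The cause of these changes was not tested. Depth limits Itga8 and Itga11 most.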
